A study of Drosophila melanogaster with 2 samples.

Results

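The regions described here are the anchors of the short-range chromatin loops of Kc167, a cell line of embryonic origin from the fruit fly Drosophila melanogaster. A loop is a pair of genomic positions, its left and right anchor, that contact each other more often than their surroundings in a Hi-C map, which counts ligation products between cross-linked pieces of chromatin. Of the 120 loops on the deposited list, all but 7 joined anchor midpoints less than 1 Mb apart, and their 226 left and right anchors are the members, of 240 anchors in all. Shares of loops below are of the loops under 1 Mb. The anchors were thus selected on the measured loop positions, so that spans and positions are given as a description, with no test. The limit fell in an empty range: the longest loop inside it spanned 240 kb and the shortest loop outside it 1318 kb.

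The map rests on 2 samples, 1 labelled primary and the other a replicate, which the design text gives as biologically independent. Both are Kc167 cultures with no genotype or agent named, fixed with paraformaldehyde, cut with DpnII and ligated while tethered to beads. They were combined before the loops and the 2126 contact domains were listed. Domains are stretches that contact themselves more than their neighbours, listed with positions and the authors' scores. The spread between the samples and the sequencing depth behind each loop are unknown, so the intervals below cover counting error over regions of this map only. Neighbouring anchors and loops that share an anchor are not independent, and these intervals do not take that into account.

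In mammalian cells many loops join sites bound by the zinc-finger protein CTCF and by cohesin, and they often connect both ends of a domain. In fly cells loops are fewer, and Polycomb group proteins, which keep developmental regulator genes silent, are known to bring distant target sites together. Borders of fly domains are known for insulator proteins and active genes. Which proteins and genes lie at the anchors of this list was not analysed here, since no genome or gene annotation of the dm3 build was used, and the anchors are named by their dm3 positions.

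Anchors were narrow and their widths came in a few discrete sizes. The median width was 2 kb (quartiles 1.5 and 3 kb, n = 226), and 184 anchors (81.4%, exact interval 75.7 to 86.3%) were 1 to 3 kb wide. A width of 2 kb was the most common, with 70 anchors, followed by 1 kb and 3 kb with 41 each, 1.5 kb with 26 and 4 kb with 22. Only 6 anchors were 2.5 kb wide and 4 were 3.5 kb wide. Both edges fell on whole kilobases in 164 anchors, and the other 62 had an edge at a multiple of 0.5 kb between them. The list thus gives positions in steps of 0.5 kb at the finest.

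The narrowest anchors were X 8652001 to 8652501 and X 8700501 to 8701001, each 0.5 kb wide, which form a single loop of 48.5 kb. They lay inside the 148 kb domain X 8616001 to 8764000, 36.2 and 63.2 kb from its nearest end. The widest were 2R 15884001 to 15894001 and 2R 16114001 to 16124001, each 10 kb, which also form a loop with each other, of 230 kb. The right one of this pair lay at the end of the 470 kb domain 2R 15650001 to 16120000, its midpoint 1 kb inside, and the left one near the middle of that domain. Below them came 8 distinct anchors of 6 kb, among them 3R 8606001 to 8612001 and 3R 8738001 to 8744001, the partners of a loop. Anchors of the 7 loops over 1 Mb were wider, from 5 to 20 kb with a median of 9 kb (n = 14).

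The partners of a loop resembled each other in width. In 69 loops (61.1%, exact interval 51.4 to 70.1%) the left and right anchors were equally wide. The left anchor was the wider in 20 loops and the right one in 24, so neither side was wider as a rule. Where they differed, the median ratio of wider to narrower was 1.5 (highest 3, n = 44), and the largest difference was 4 kb. Across loops, left and right widths had a Spearman correlation of 0.801, and the mean width of a loop had one of -0.0271 with its span (n = all loops under 1 Mb). Both partners come from 1 loop call, so their widths are not separate measurements.

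The share of anchors 1 kb or narrower set the X chromosome apart from the other arms. On X, 25 of 54 anchors (46.3%, exact interval 32.6 to 60.4%) were 1 kb or narrower, against 18 of 172 (10.5%, 6.32 to 16%) on the other arms together. Single arms ranged from 19.6% on 2L through 10% on 3L and 8.7% on 3R to none of 24 anchors on 2R and none of 6 on chromosome 4. At the other extreme, 1 anchor on X (1.85%) was 4 kb or wider, against 35 (20.3%, 14.6 to 27.1%) elsewhere. This share was 28.3% on 3R, 24% on 3L, 16.7% on 2R and 13% on 2L, with none of 6 anchors on chromosome 4. Both anchors were 1 kb or narrower in 9 of 27 loops on X and in 6 of 86 on the other arms. The median width was 1.5 kb on X, 3 kb on 3R and 2 kb on the other arms. Edges between whole kilobases were also more frequent on X, in 38.9% of anchors against 23.8% elsewhere, with exact intervals that overlap (25.9 to 53.1% and 17.7 to 30.9%). These differences between arms were not tested.

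**Figure D1:**
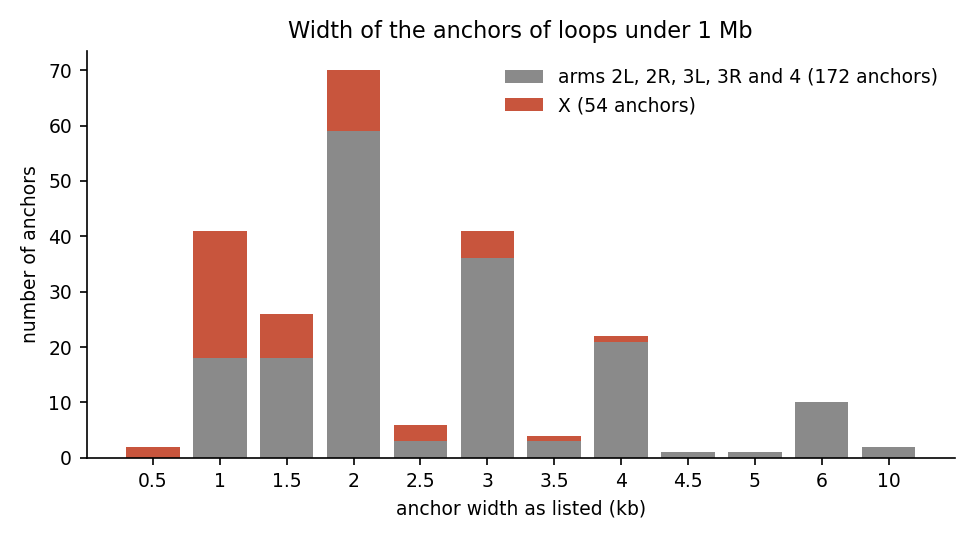
Number of anchors of loops under 1 Mb (vertical axis) at each listed width in kb (horizontal axis, 1 bar per width that occurs, not to scale), with anchors on X stacked in red on those of the other arms in grey. Most anchors are 1 to 3 kb wide, X holds 25 of the 43 anchors of 1 kb or less, and 1 anchor on X is 4 kb or wider.

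Spans were spread over a wide range with no gap inside it. The median distance between anchor midpoints was 50 kb (exact interval 43.8 to 62.5 kb), and the middle 50% of loops spanned 31 to 82 kb. In classes of span, 13 loops (11.5%) reached 10 to 20 kb, 42 (37.2%) reached 20 to 50 kb, 37 (32.7%) reached 50 to 100 kb and 21 (18.6%) reached 100 to 240 kb. Anchor width did not follow these classes, since the median was 2 kb in each of the 4. Loops of 100 to 240 kb shared an anchor with another loop more often, in 10 of 21 cases (47.6%), than those of the other classes, at 23.1, 35.7 and 27%.

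The shortest loop spanned 10 kb between X 13908001 to 13910001 and X 13918001 to 13920001, with neither anchor in a domain. The loop that followed, on 3L, spanned 11 kb from 22817001 to 22818001 to its partner 22828001 to 22829001, in a domain of 150 kb. A 12.5 kb loop on 2L, of 14518001 to 14520001 and 14530001 to 14533001, lay in a domain of 230 kb. The 13 kb loop on 2L, from 3094501 to 3096001 to 3107501 to 3109001, ran from 1.25 kb inside the start of a 14 kb domain to 0.25 kb past its end, while the 14.5 kb loop on X (4305001 to 4306501 with 4319001 to 4321501) lay in one of 155 kb. Of these 5 shortest loops, the 3 inside a domain were in domains of 150 to 230 kb.

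The longest member, of 240 kb, joined 3L 11240001 to 11242001 and 3L 11480001 to 11482001 within a 300 kb domain. After the 230 kb loop on 2R came one of 214 kb on 3R between 21089501 to 21090501 and 21303001 to 21304001. Its anchors, each 1 kb wide, lay in small domains of 17 and 18 kb, with 3 whole domains between them. The fourth, of 197 kb, joined 2L 21827501 to 21828501 and 2L 22024501 to 22025501 inside a 355 kb domain, and the fifth, of 190 kb, belongs to the set on 3R described below. The widest reach thus came with anchors of 1 and 2 kb as well as of 10 kb.

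**Figure D2:**
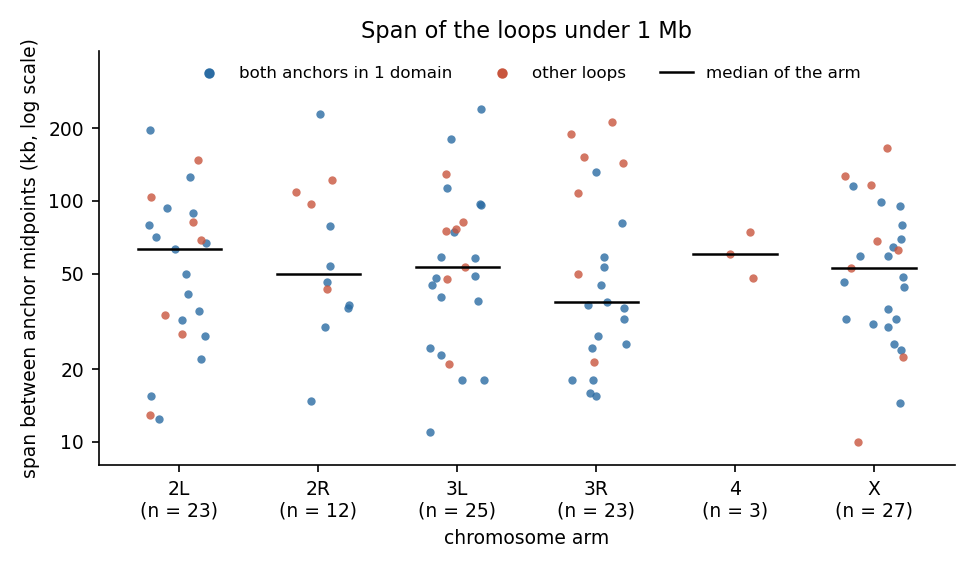
Span of each loop under 1 Mb in kb on a log scale (vertical axis) by chromosome arm (horizontal axis); each point is a loop, blue where both anchors lie in 1 domain and red otherwise, and the line is the median of the arm. Spans run from 10 to 240 kb, with arm medians between 38 kb on 3R and 63 kb on 2L.

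The arms differed little in span and more in the density of anchors. Median spans were 38 kb on 3R, 49.8 kb on 2R, 52.5 kb on X, 53 kb on 3L, 60 kb on chromosome 4 and 63 kb on 2L. Distinct anchors, counted once where those of several loops overlapped or touched, numbered 192. X had the most among the large arms, 51 or 22.7 per 10 Mb, followed by 3L with 45 (18.5), 2L with 34 (14.8), 3R with 36 (12.9) and 2R with 22 (10.4). The 4 anchors of chromosome 4 all belong to 1 set of loops.

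The distances between neighbouring anchors covered a wide range. The median distance between neighbouring distinct anchors was 85.4 kb (exact interval 64.2 to 125 kb, n = 186), but the upper quartile was 501 kb and 32 neighbours lay over 1 Mb apart. Of the 186 neighbouring pairs, 92 were partners in a loop, at a median distance of 47.6 kb. Since each loop adds its anchors as a pair under 1 Mb apart, close neighbours of this kind follow from how the members were chosen. The 94 neighbours that were not partners had a median distance of 499 kb and an upper quartile of 1557 kb. Of 123 windows of 1 Mb, 60 held no anchor. The fullest was 3R from 2 to 3 Mb, with 8 distinct anchors, and 6 each lay in 2L 14 to 15 Mb, 3L 1 to 2, 17 to 18 and 22 to 23 Mb, and X 4 to 5 Mb.

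The longest stretches between neighbouring anchors were on 2L, 5.63 Mb between 3109001 and 8739001 and 5.34 Mb between 16488001 and 21827501. On 3R they were 4.8 Mb between 21304001 and 26103001 and 4.35 Mb between 16740001 and 21089501, and on 3L 4.34 Mb between 6899001 and 11240001. Stretches before the first and after the last anchor of an arm were not ranked. On 2R the last anchor midpoint lay at 16.1 Mb, and the arm ran to 21.1 Mb. Anchors of the longer loops were not counted here.

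Most loops had no other anchor between their own, as was the case in 92 (81.4%, exact interval 73 to 88.1%). Another 13 loops enclosed 1 distinct anchor, 6 enclosed 2, and 1 loop each enclosed 3 and 4. Some close neighbours were not joined to each other. In 10 cases such anchors lay less than 20 kb apart, beside 13 loops that spanned 10 to 20 kb. The nearest were 3L 22398001 to 22402001 and 3L 22404001 to 22406001, at 5 kb. Next came 2L 14488501 to 14492001 and 2L 14495001 to 14497001, at 5.75 kb. No loop on the list was shorter than 10 kb.

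Loops without a shared anchor rarely overlapped. In 7 pairs 1 loop lay within the other. On 3L a 40 kb loop (22358001 to 22362001 with 22398001 to 22402001) sat inside one of 58 kb (22346001 to 22348001 with 22404001 to 22406001), each anchor 13 and 5 kb from its neighbour. On X the loop of 0.5 kb anchors lay inside one of 115 kb (8615501 to 8617001 with 8730501 to 8732501), whose left anchor was 0.25 kb from the start of the same 148 kb domain. On 3L an 18 kb loop (1379001 to 1382001 with 1397001 to 1400001) lay inside one of 96.5 kb (1366001 to 1370001 with 1462501 to 1466501) in a 136 kb domain. Only 4 pairs crossed, so that each had 1 anchor inside the other, and these 4 all came from 3R 2672001 to 2864001.

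Sharing of anchors was limited to a minority. Of the 192 distinct anchors, 165 took part in 1 loop, 20 in 2 and 7 in 3. The 27 shared anchors are listed once for each of their loops, and how these entries were set is unknown. In 10 of 27 the listed intervals were identical, in 20 the midpoints differed by at most 0.5 kb, and the median difference was 0.5 kb. The largest, 2 kb, was at 3R 2672001 to 2676001, which was listed with 3 different intervals. Only this 1 of the 27 exceeded 1 kb.

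Through shared anchors 38 loops formed 13 sets, and the other 75 stood alone. Of the sets, 6 had 2 loops, 5 had 3, 1 had 5 and 1 had 6. In 5 sets every pair of anchors was joined. Loops in sets had a median span of 59.2 kb (n = 38), against 50 kb for those alone (n = 75), with overlapping exact intervals (37 to 79 kb and 40 to 59.2 kb). The median anchor width was 2 kb in both.

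The largest set was on 3R, where 6 loops joined 4 anchors in all combinations. The anchors 2672001 to 2676001 and 2718001 to 2721001 lay in the 84 kb domain 2650001 to 2734000, and 2825001 to 2828001 and 2862001 to 2864001 in the neighbouring 152 kb domain 2738001 to 2890000. The 2 loops within a domain spanned 45 and 37 kb, and the 4 across the border spanned 108, 144, 152 and 190 kb. None of the 4 anchors was at a border, as their distances to the nearest domain end were 24, 14.5, 63.5 and 27 kb. A further loop of 38 kb, between 2694001 to 2698001 and 2732001 to 2736001, used other anchors in the same place, and the right one had its midpoint on the end of the first domain. In 3 of the 4 crossing pairs this loop was a partner.

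The 5-loop set lay on 2L, with anchors at 14495001 to 14497001, 14517001 to 14520001, 14529001 to 14533001 and 14598001 to 14601001. Here 5 of 6 possible pairs were joined, the first with the third being absent. The first 3 anchors lay within the 230 kb domain 14365001 to 14595000, 64 to 99 kb from its end, while the fourth lay outside it, 0.5 kb from the start of the next domain. All 3 inner anchors were joined to this outer one, by loops of 69, 81.5 and 104 kb, and their 2 mutual loops spanned 12.5 and 22 kb.

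Another 4 sets were closed triangles inside a domain. They joined 12586001 to 12589001, 12617001 to 12621001 and 12653001 to 12656001 on 2L (32, 35 and 67 kb, in a domain of 126 kb). A second triangle on 2L joined 21827501 to 21829001, 21899001 to 21900001 and 22024001 to 22025501 (71, 125 and 197 kb, in a domain of 355 kb). On 3L the corners were 11240001 to 11242001, 11421001 to 11424001 and 11479501 to 11482001 (58.5, 182 and 240 kb, in a domain of 300 kb). On X they were 18137001 to 18139001, 18170001 to 18173001 and 18206001 to 18208001 (32.5, 35.5 and 69.2 kb). This X domain, 18135501 to 18212500, was 77 kb long, and its triangle took up 89.9% of it.

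Chromosome 4 had a different arrangement, a star. The anchor 152001 to 154001 was joined to 200001 to 202001, 212001 to 214001 and 226001 to 228001 by loops of 48, 60 and 74 kb, and these 3 were not joined to each other. The hub was outside any domain, 5 kb from the nearest end, whereas the other anchors lay in the 27 kb domain 200001 to 227000, at its start, within it and on its end. The 6 sets of 2 loops likewise had a common anchor and 2 ends that were not joined. In 9 of the 13 sets all loops lay in 1 domain.

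**Figure D3:**
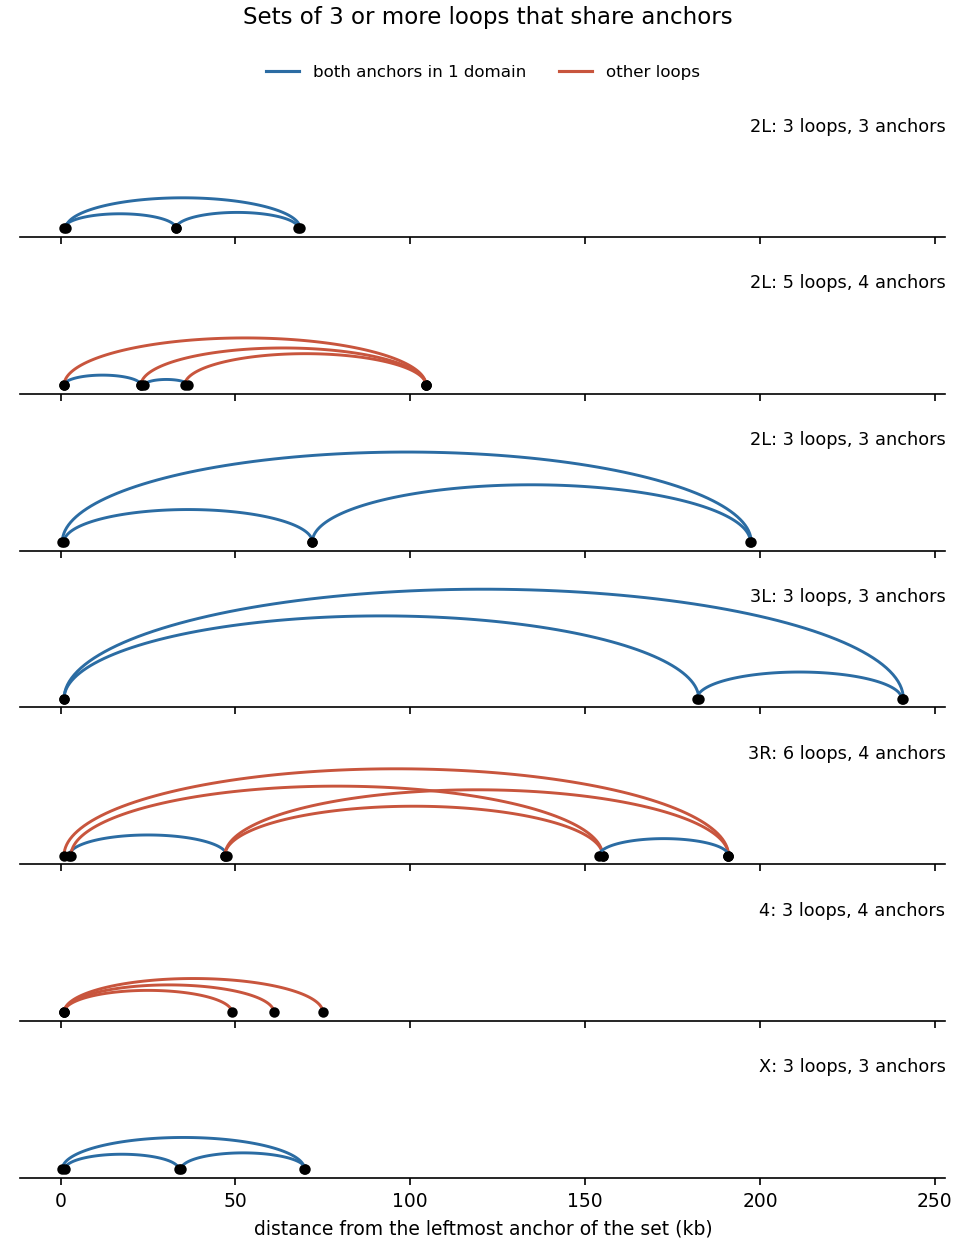
The 7 sets of 3 or more loops under 1 Mb, 1 per panel, with distance from the start of the leftmost anchor in kb on the horizontal axis; dots are listed anchor midpoints and arcs are loops, with a height in proportion to span, blue where both anchors lie in 1 domain and red otherwise. Triangles on 2L, 3L and X are blue throughout, the 3R set has 4 red loops between 2 domains, and the chromosome 4 set is a star of 3 loops.

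Anchors lay mostly in long domains. Midpoints of 160 of the 192 distinct anchors (83.3%, exact interval 77.3 to 88.3%) fell in a domain, and domains took up 79.5% of the sequence spanned by the lists. The domain around an anchor had a median length of 137 kb (exact interval 122 to 152 kb, n = 160), against 21.5 kb for all 2126 domains. Since a long domain offers more sequence, the length above which domains hold 50% of all domain sequence, 92 kb, is also given. In domains of 100.5 to 200 kb there were 58 anchors, 36.2% of those in domains against 23.8% of domain sequence, or 2.55 per Mb. In domains over 200 kb there were 1.95 per Mb. The density was 1.73 per Mb at 50.5 to 100 kb, 1.02 at 20.5 to 50 kb and 0.621 in domains up to 20 kb, which held 8 anchors. A loop cannot lie inside a domain shorter than its span.

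Distinct anchors lay in 79 of the 2126 domains, of which 20 held 1 anchor, 43 held 2, 11 held 3, 4 held 4 and 1 held 5. The 160 anchors in domains could lie in at most 160 of them. A domain that encloses a whole loop holds both of its anchors, and 58 domains did so. The domain with 5 was 2L 14365001 to 14595000, where a loop of 79.2 kb (14408501 to 14413501 with 14488501 to 14492001) lay beside the inner loops of the 5-loop set. Among domains over 200 kb, 19 of 73 (26%, exact interval 16.5 to 37.6%) enclosed a whole loop, and at 100.5 to 200 kb 24 of 160 did (15%, 9.85 to 21.5%). The share was 4.42% at 50.5 to 100 kb and 0.773% at 20.5 to 50 kb, and none of the 1020 domains up to 20 kb enclosed a loop (exact upper bound 0.361%). Only the 13 loops of 10 to 20 kb could fit in the last class. Shares per domain do not allow for the sequence that a long domain offers. Domains over 200 kb held 26 whole loops in 23 Mb. Those of 100.5 to 200 kb held 31 in 22.8 Mb, those of 50.5 to 100 kb 13 in 16.2 Mb, and those of 20.5 to 50 kb 7 in 20.6 Mb.

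**Figure D4:**
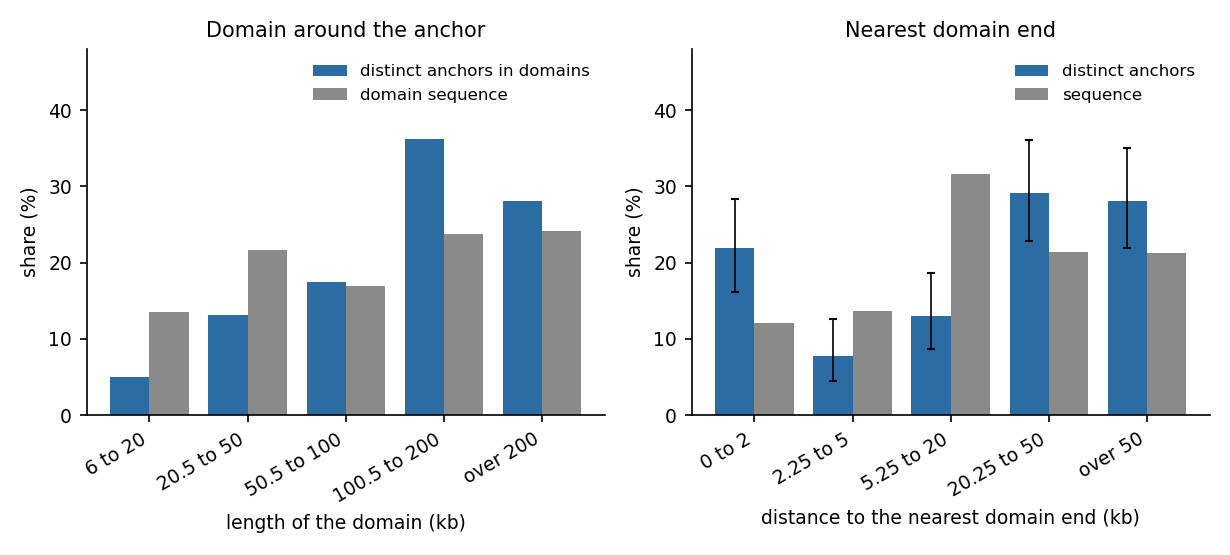
Left, share of the 160 distinct anchors in domains (blue) and of domain sequence (grey), in percent, by domain length in kb. Right, share of all 192 distinct anchors (blue, with exact 95% intervals) and of spanned sequence (grey), in percent, by distance to the nearest domain end in kb; anchors exceed sequence at 0 to 2 kb and beyond 20 kb and fall below it at 2.25 to 20 kb.

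Both anchors shared a domain in 77 loops (68.1%, exact interval 58.7 to 76.6%). How often other position pairs of the same spans fall in 1 domain was not computed, so 68.1% has no background value beside it. The share of loops within 1 domain was lower in each longer class of span. It was 11 of 13 loops of 10 to 20 kb (84.6%) and 34 of 42 of 20 to 50 kb (81%). It was 24 of 37 of 50 to 100 kb (64.9%) and 8 of 21 of 100 to 240 kb (38.1%, exact interval 18.1 to 61.6%). Fewer domains are long enough to hold a longer loop, since 73 of the 2126 domains were over 200 kb. The share of loops within 1 domain was alike on the 5 large arms, from 66.7% on 2R to 72% on 3L. None of the 3 loops of chromosome 4 had both anchors in 1 domain. Loops that stood alone and loops in sets had similar shares, 68% (n = 75) and 68.4% (n = 38).

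The 77 loops are those with both midpoints inside the domain, which leaves out 9 of the 12 loops with anchors within 5 kb of the start and the end. The left anchor lay a median of 40.8 kb from the domain start and the right one 41.8 kb from its end (n = 77), so neither side was closer. In 48 loops (62.3%, exact interval 50.6 to 73.1%) both anchors were over 20 kb from the ends, and in 16 (20.8%) 1 or both were within 5 kb. The loop covered a median of 34.5% of its domain (lowest 5.43%, highest 94.2%), with 20 loops over 50% and 27 under 25%. Its centre had a median position at 48.5% of the domain (quartiles 32.7 and 61.1%), and the centre of an enclosed loop cannot reach the ends. The domain midpoint lay within 45 of 77 loops, as it must in the 20 that cover over 50%.

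**Figure D5:**
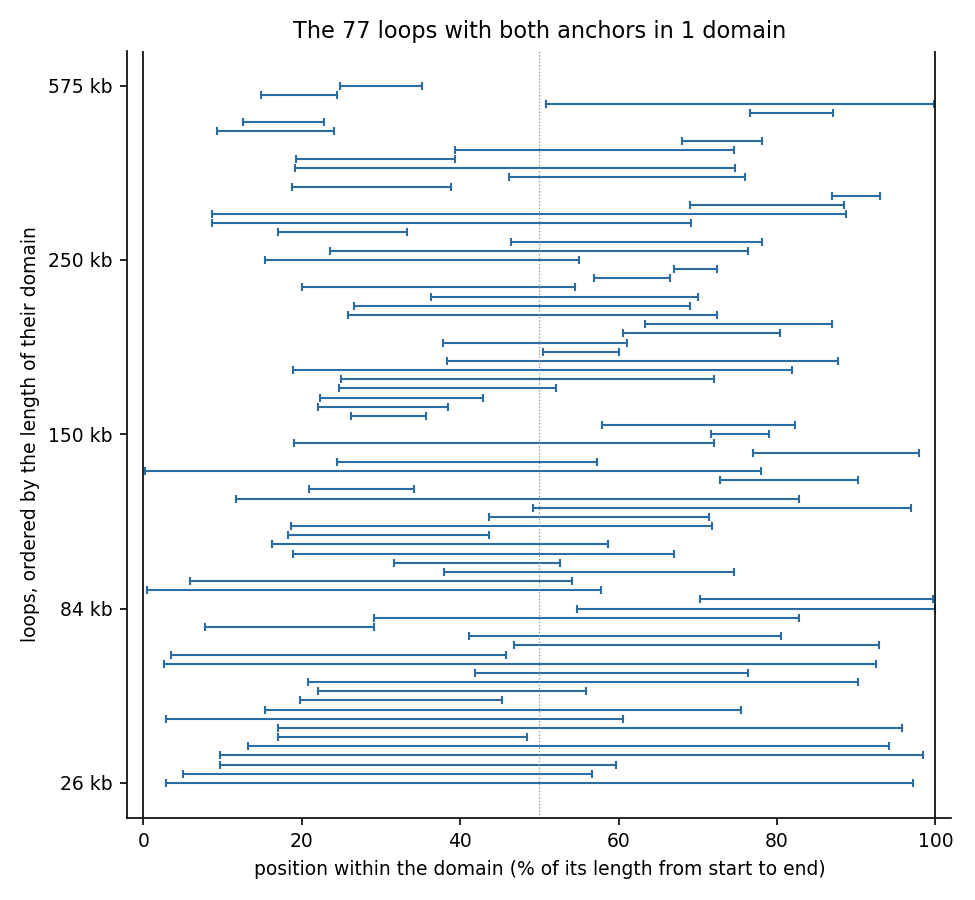
The 77 loops with both anchors in 1 domain, 1 line per loop from left to right anchor midpoint, drawn on the domain scaled from 0 to 100% of its length (horizontal axis) and stacked by the length of the domain (26 kb at the bottom, 575 kb at the top). Most lines stop short of both ends, and the median loop covers 34.5% of its domain.

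Of the 36 loops not inside a domain, 9 joined different domains. In 17 a single anchor lay between domains, and in 10 both did. They were longer than the loops inside, with a median span of 74.6 kb (exact interval 52.5 to 108 kb) against 45 kb (36 to 53.5 kb). The length of the domain limits the span of a loop inside it, and loops not inside have no such limit. Whole domains between the anchors numbered none in 19 of the 36, 1 in 13, 2 in 3 and 3 in 1. The 10 loops with both anchors between domains were of 2 kinds. In 6 there was exactly 1 whole domain between the anchors, as for X 20503001 to 20504001 with X 20630001 to 20631001. In the other 4 no domain start or end lay between them: 3L 1098501 to 1103001 with 1175501 to 1179001 (76.5 kb), and on X 2867001 to 2869501 with 2919501 to 2922001 (52.5 kb), 11064501 to 11065501 with 11127001 to 11128001 (62.5 kb) and the 10 kb loop named above.

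At domain ends the anchors had an uneven profile of distance. Of the 192, 42 (21.9%, exact interval 16.2 to 28.4%) lay within 2 kb of a domain end, where 12.1% of the sequence lies, and 8 of these had the midpoint on the end itself. At 2.25 to 5 kb there were 15 (7.81%, 4.44 to 12.6%) against 13.6% of the sequence, and at 5.25 to 20 kb 25 (13%, 8.61 to 18.6%) against 31.6% of the sequence. At 20.25 to 50 kb there were 56 (29.2%, 22.8 to 36.1%) against 21.4%. Beyond 50 kb there were 54 (28.1%, 21.9 to 35.1%) against 21.2%. The excess close to an end was thus limited to the first 2 kb: within 5 kb in all there were 57 (29.7%, 23.3 to 36.7%) against 25.8%, and within 10 kb 67 (34.9%, 28.2 to 42.1%) against 40.7%. The shares of sequence were not matched for domain length. Domains around anchors were longer than most (median 137 kb against 21.5 kb), and a long domain has more sequence far from its ends. With domains limited to the 50% of highest corner score, 15.6% of anchors were within 5 kb of an end. The share of sequence near the ends of these fewer domains was not computed, so 15.6% cannot be set against 25.8%. With all domains, the median distance was 25.8 kb. For anchors between domains, which are counted in these shares, the median distance was 1.5 kb (n = 32). The stretches around them had a median length of 15.5 kb, which limits this distance. Of the 32, 10 lay in stretches of 5 kb or less and 10 in stretches over 50 kb. The share of sequence between domains at such distances was not computed.

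Of the 226 anchors, 64 (28.3%, exact interval 22.5 to 34.7%) had a domain end within 5 kb, close to the 25.8% of sequence that lies there. In 28 of the 64 both a start and an end of a domain were that near, as at a border of adjoining domains, so that no side could be given. In 28 others the only kind of end within 5 kb was the one that opens toward the loop, a start for a left anchor or an end for a right one, and in 8 it was the opposite one. Of the 36 with 1 kind of end nearby, 77.8% (60.8 to 89.9%) thus faced into the domain. With no loop shorter than 10 kb, a loop inside 1 domain has to face inward at the ends of that domain. Of the 77 such loops, 16 had an anchor within 5 kb of an end of their domain. The share therefore cannot be read as a preference in direction, which was not tested. In 18 loops both anchors were near an end, in 28 only 1 was, and in 67 neither was. Anchors used by several loops were near an end in 5 of 27 cases (18.5%, 6.3 to 38.1%), against 52 of 165 (31.5%, 24.5 to 39.2%) for those used by 1, intervals that overlap.

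Loops that joined the start to the end of a domain numbered 17 (15%, exact interval 9.01 to 23%) with both anchors within 10 kb. The share was 22.1% within 20 kb and 10.6% (5.61 to 17.8%) within 5 kb, which held 12 loops. These limits are wide beside the median domain of 21.5 kb. Of all sequence, 25.8% lay within 5 kb of a domain end, 40.7% within 10 kb and 57.4% within 20 kb. The share of other position pairs of the same spans that meet these limits was not computed. The 12 loops within 5 kb are described here. Their spans ran from 13 to 127 kb with a median of 30.8 kb, and 7 of them were in the 20 to 50 kb class. The closest was 3L 2170501 to 2172001 with 2191501 to 2193001, where the midpoints lay 0.25 kb to the right of both ends of the domain 2171001 to 2192000. Also close were 3L 17732001 to 17733501 with 17756501 to 17758001, each 0.75 kb inside a 26 kb domain, and 2L 3094501 to 3096001 with 3107501 to 3109001 (offsets of 1.25 and 0.25 kb). On 2L 15009001 to 15012001 with 15037001 to 15040001 both midpoints were 1.5 kb to the right of the ends of a 28 kb domain. The 2R loop 1187001 to 1193001 with 1232001 to 1234001 had offsets of 0 and 1 kb.

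The other 7 were looser. On 3L, 12410001 to 12412001 with 12463001 to 12465001 lay on the start and 3 kb past the end of a 50 kb domain, and on 3R, 26103001 to 26109001 with 26132001 to 26135001 lay 3 and 0.5 kb inside one of 31 kb. On 2L the loops 1635501 to 1636501 with 1669001 to 1670001 and 9175001 to 9178001 with 9202001 to 9206001 started 4 and 4.5 kb inside domains of 35 and 34 kb. The 3 on X were the longest of the 12, at 68.5, 117 and 127 kb (16041501 to 16043501 with 16110001 to 16112001, 17199001 to 17200001 with 17316001 to 17317001, and 20503001 to 20504001 with 20630001 to 20631001). In all 3 both anchors lay outside the domain, 0.5 to 3.5 kb beyond it. The midpoints of both anchors lay inside the domain in 3 of the 12 loops, those at 9175001 on 2L, 17732001 on 3L and 26103001 on 3R.

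The authors' corner score is a score of each domain with no stated scale. Domains that enclosed a whole loop had a median score of 1.58 (quartiles 1.44 and 1.72, n = 58), against 1.3 (1.09 and 1.49, n = 2068) for the others. Among domains without a loop the median was higher in each longer length class, and within length classes the medians were closer. With a loop against without, they were 1.59 (n = 24) against 1.49 at 100.5 to 200 kb and 1.59 (n = 19) against 1.53 over 200 kb. At 50.5 to 100 kb they were 1.49 (n = 10) against 1.37, and at 20.5 to 50 kb 1.53 (n = 5) against 1.36. The ranges between quartiles overlapped in each of these classes. The 12 domains joined from start to end had a median of 1.16 (exact interval 1.01 to 1.47), an interval that holds the median of 1.31 over all domains. Of these 12, 3 enclosed their loop and are also among the 58, and they were not compared within length classes. Both lists come from the same contact map, and the differences were not tested.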

How the data were processed

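Tethered Hi-C was made from 2 Kc167 samples. The submitters' processing notes name BWA, Juicer and the build dm3 (BDGP5). Callers of domains and loops were not given in the sources used here. Deposited lists, which the authors made from the samples combined, hold loop anchors as positions and domains with 5 scores per domain as given by the authors, without a stated scale.

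Anchors were used as listed, with width as end minus start, and domain starts are printed as the listed start plus 1. Span is the distance between anchor midpoints. Overlapping or touching anchors counted as 1 distinct anchor. A midpoint on a domain end counted as inside. Arms were taken to run from 0 to the last listed position. Shares have exact Clopper-Pearson intervals and medians exact binomial intervals from order statistics (95%). No test was run. Named regions followed a rule: anchors with 3 loops, sets of 3 or more loops, and the 5 shortest and 5 longest loops. The rule also named the narrowest and widest anchors (the tied ones of 1 kb and some of 6 kb are given as counts). It further named loops at domain corners within 5 kb, domains with 3 loops and the 5 longest empty stretches between neighbouring anchors. Nested and other loops were named after their values were seen. The members, rules and lists were chosen with earlier results of these data known. The code was tested on simulated data. Python 3.11.15, pandas 2.3.3 and SciPy 1.17.1 were used. Genes and sequence were not analysed here.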

Additional observations from a re-analysis of the deposited data

How the results depend on the processing

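Leaving out a sample was not possible with pooled lists. No paired analysis was possible because both samples belong to 1 group and were combined. Of 26 alternatives for 9 results, 21 stayed within the exact interval of the value reported, or within 1.5 times it for the number of anchors. For loops at a domain corner this is the 15% within 10 kb, with 10.6% within 5 kb and 22.1% within 20 kb. The share of distinct anchors inside a domain moved from 83.3% to 76% when the whole anchor had to lie inside, and to 66.7% with domains limited to the 50% of highest corner score. The share near a domain end moved from 29.7% within 5 kb to 21.9% within 2 kb, and to 15.6% with domains limited to the 50% of highest corner score. That choice raised the median length of the domain around an anchor from 137 to 154 kb. In these cases fewer domains, or a narrower limit, were counted. The median width was 2 kb under each alternative run, and the median span lay between 48 and 52 kb. The 4 alternatives on midpoints at a domain end (for loops and for anchors), on arms without X and on anchors used by 1 loop were chosen after seeing the data. Gene starts and motifs, for which 2 alternatives had been listed, were not analysed here. Depth could not be assessed.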

Other observations

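The other scores of the authors also differed between domains with and without a whole loop under 1 Mb, though not all of them. The upper and lower sign scores had medians of 0.931 and 0.938 in the 58 domains that enclosed a loop, against 0.775 and 0.776 in the other 2068. The upper and lower variance scores were alike, with medians of 0.0446 and 0.0414 against 0.0448 and 0.0448. These scores have no stated scale, were not compared within classes of domain length and were not tested.

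Of the 192 distinct anchors, 3 overlapped an anchor of a loop over 1 Mb. On 2R these were 10898001 to 10900001 and 10995001 to 10998001, the partners of a 97.5 kb loop, and on X 903001 to 906001. They were 2, 3 and 3 kb wide, and the overlapping anchors of the longer loops ran from 10895001 to 10905001, 10990001 to 11000001 and 900001 to 908001.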
